A study of Mus musculus with 33 samples.

Results

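The 7726 autosomal windows of a table of 9743 windows were examined for DNA methylation in calvarial-derived osteoblasts (calvarial-OB) against tail-tip fibroblasts. Each window is 100 bp long and carries 1 mean relative methylation score per cell type, and the members are all rows on chromosomes 1 to 19. The other rows are 1852 windows on chromosome X and 165 on Y or on sequence not placed on a chromosome. Calvarial-OB are mouse cells that the labels trace to calvarial progenitors under osteoblast differentiation. Fibroblasts came from tail tips of mice of the Col2.3GFP line, whose reporter is driven in cells of the osteoblast lineage by part of a type I collagen promoter, and were expanded for 2 passages before freezing. The table's other group, induced osteoblasts (iOB), was made from such fibroblasts with lentivirus that delivered transcription factor genes. Each of the 3 groups has 3 libraries of methylation-enriched DNA and 3 input libraries, within a series of 33 samples that also holds RNA libraries. Age, sex and number of animals are not given in the sources used here, nor is it said whether libraries of a group came from separate cultures.

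DNA methylation in mammals sits mostly on the cytosine of CpG dinucleotides, is copied at cell division and is removed by dilution or by oxidation. Differentiated cell types of one organism share most of their methylation and differ at scattered regulatory and repeated sequences, and methylated CpG-rich promoters are as a rule silent. Osteoblasts are the bone-forming cells. Those of the skull vault arise from cranial mesenchyme and neural crest, whereas tail-tip fibroblasts come from skin and connective tissue of the tail. The assay captures sonicated DNA with proteins that bind methylated CpG, so a window without CpG yields little signal whatever its state, and fragments of 100 to 350 bp reach into neighbouring windows.

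The windows were chosen by the authors as differentially methylated among the groups, by a criterion not given in the sources used here. In 7599 of the 7726 windows (98.4%) the iOB score was exactly 0, while calvarial-OB stood at 0 in 1994 (25.8%) and fibroblasts in 23 (0.298%). The autosomal windows are therefore, almost without exception, places with a signal in fibroblasts and none in iOB, and the direction of the calvarial-OB difference is described within that choice. A genome-wide gain or loss cannot be read from it.

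The deposited values are group means, so there is no spread between libraries and no test of any window. The fibroblast scores were all multiples of 0.00333, the step of a mean of 3 scores with 2 decimals. The calvarial-OB scores were all multiples of 0.005, the step of a mean of 2 such scores, and 66.2% of them over the whole table were also multiples of 0.01. The iOB scores were likewise all multiples of 0.005, and 93.6% of them over the whole table were multiples of 0.01. In both groups the remainder cannot be means of 3 scores with 2 decimals. How many of the 3 libraries of calvarial-OB and of iOB entered the means is not given in the sources used here. A mid-level mean can come from libraries that all stood at a middle level or from 1 high and 1 at 0, and likewise from all cells or from part of them; the means cannot tell these apart.

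The labelled cell types were checked in RNA libraries of the same-named groups, which are other libraries than those of the methylation assay. All 8 osteoblast markers had every calvarial-OB library above every fibroblast library, a state found in 29.6% of the 17798 genes with a count (21.4% had the opposite order). The bone sialoprotein gene Ibsp stood at 2513, 3113 and 3013 CPM (gene counts scaled to the library total) in the calvarial-OB libraries, against 1.88, 1.96 and 8.30 CPM in the fibroblast libraries. The mineralizing-osteoblast gene Ifitm5 stood at 44.9, 82.0 and 51.7 CPM in calvarial-OB, against 0.564, 0.131 and 0 CPM in fibroblasts. Of 6 fibroblast markers, 3 were higher in every calvarial-OB library, among them the collagen genes Col1a2 and Col3a1, and 3 were lower, among them the fibronectin gene Fn1. All 4 measured macrophage markers of 5 listed were higher in every calvarial-OB library, with a summed level of 555 to 1077 CPM in calvarial-OB and of 7.18 to 12.1 CPM in fibroblasts. The 3 endothelial markers summed to 2.92 to 9.61 CPM in calvarial-OB and to 2.54 to 3.41 CPM in fibroblasts, and the 1 measured keratinocyte marker, Krt5, was at 0 in all calvarial-OB libraries. The part of macrophages in the methylation scores was not tested. The titles of the calvarial-OB RNA libraries name a dataset 2 and those of fibroblasts name none.

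Most windows had less methylation in calvarial-OB. The calvarial-OB score was lower than the fibroblast score in 6723 windows (87.0%), higher in 995 (12.9%) and equal in 8. Over all windows of the table, which include these, 77.5% were lower and 18.5% higher. The median score was 0.290 in calvarial-OB (quartiles 0 and 0.340) and 0.543 in fibroblasts (quartiles 0.434 and 0.677), and the median difference, calvarial-OB minus fibroblast, was -0.337 (quartiles -0.418 and -0.115). Scores that differed by at least 0.2 were lower in calvarial-OB in 4952 windows (64.1%, against 55.3% of the whole table) and higher in 125 (1.62%, against 2.47%). A difference of at least 0.5 was seen in 1251 windows (16.2%), all lower in calvarial-OB, against 13.8% of the whole table that were lower by as much. The size of the shift depends on the 2 groups' scores sharing a scale, which the sources used here do not state. With calvarial-OB scores multiplied by 1.80, which gives them the fibroblast median over the whole table, 60.2% of autosomal windows were lower and 39.8% higher. The median difference was then -0.0904. A score of 0 stays at 0 under any factor, so the 1990 lower windows at 0 in calvarial-OB stayed lower by construction. Among windows above 0 in calvarial-OB, more were then higher than lower.

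The calvarial-OB scores had a peak at 0 and another near 0.3. Beside the 1994 windows at 0, 4368 windows (56.5%) scored from 0.2 to below 0.4, 894 (11.6%) from 0.4 to below 0.6, and 251 (3.25%) above 0 and below 0.2. The most frequent scores above 0 were 0.305 in 772 windows, 0.270 in 769 and 0.330 in 505. Fibroblast scores had their commonest values near the top of their range, with 0.677 in 503 windows, 0.673 in 394 and 0.687 in 310. At 0.6 or more stood 219 windows (2.83%) in calvarial-OB and 3515 (45.5%) in fibroblasts. Nearly as many fibroblast scores, 3350 (43.4%), lay from 0.4 to below 0.6, where 0.437 was a frequent value, in 205 windows. The commonest combination was a fibroblast score from 0.65 to below 0.70 with a calvarial-OB score below 0.05, found in 1029 windows, followed by the same fibroblast range with a calvarial-OB score from 0.30 to below 0.35, found in 937. Windows at 0 in calvarial-OB had a median fibroblast score of 0.670, while the 5732 windows with a calvarial-OB score above 0 had medians of 0.310 in calvarial-OB and 0.513 in fibroblasts.

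**Figure D1:**
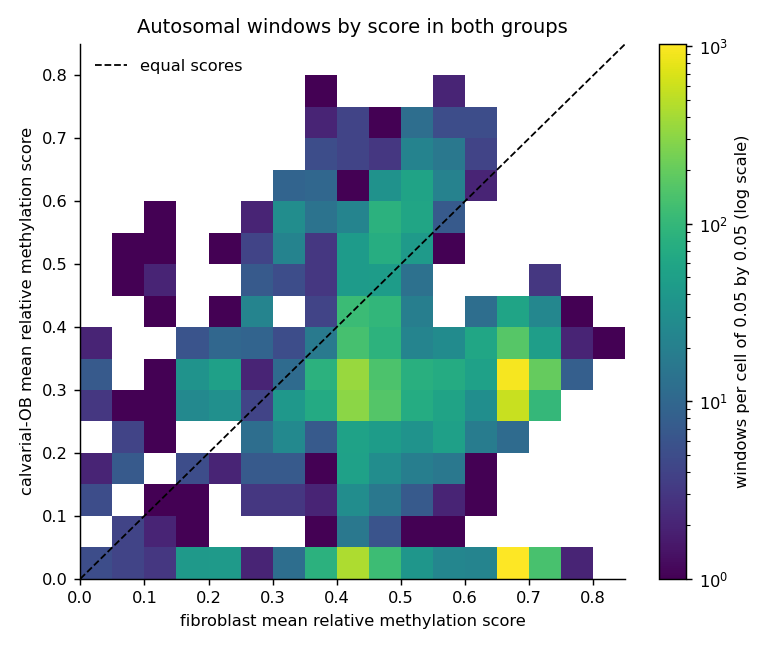
Autosomal windows counted by calvarial-OB score (vertical) and fibroblast score (horizontal) in cells of 0.05, with colour as the number of windows on a log scale and a dashed line at equal scores. Most windows lie below the line, in bands at a calvarial-OB score of 0 and around 0.3.

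The windows with the most negative differences had high scores in fibroblasts and 0 in calvarial-OB. The 2 adjoining windows chr3:150405301-150405400 and chr3:150405401-150405500 (mm9) both scored 0 in calvarial-OB and 0.753 in fibroblasts. Next came chr5:39428101-39428200, with 0 in calvarial-OB and 0.743 in fibroblasts. The windows chr10:87453401-87453500 and chr10:87453601-87453700, which lie 1 window apart, both scored 0 in calvarial-OB and 0.740 in fibroblasts. All 5 were also at 0 in iOB, the state of 98.4% of autosomal windows. A window at the median difference, one of 64 tied there, was chr1:59087001-59087100, with 0.340 in calvarial-OB, 0.677 in fibroblasts and 0 in iOB. No gene is assigned to any window here, since the annotation at hand is of another build.

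Windows with more methylation in calvarial-OB had smaller differences and other levels. The 995 higher windows had a median difference of 0.0967 (quartiles 0.0533 and 0.143), with median scores of 0.535 in calvarial-OB and 0.440 in fibroblasts. The 6723 lower windows had medians of 0.270 in calvarial-OB and 0.637 in fibroblasts. The most positive difference was at chr8:94884601-94884700, with 0.560 in calvarial-OB, 0.127 in fibroblasts and 0.385 in iOB. At chr7:144507101-144507200 the scores were 0.525 in calvarial-OB, 0.107 in fibroblasts and 0.345 in iOB, and the window after it, chr7:144507201-144507300, had 0.520, 0.0967 and 0.340 in the same groups. On chromosome 6, the windows chr6:30908601-30908700 and chr6:30908801-30908900 both scored 0.375 in calvarial-OB and 0 in fibroblasts, with 0.305 and 0.290 in iOB. All 5 had a score above 0 in iOB too, a state found in 79 of the 995 higher windows (7.94%) and in 48 of the 6723 lower ones (0.714%).

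The difference followed the fibroblast level. Windows were divided into 5 groups of near-equal size by fibroblast score, called quintiles here, with tied scores kept together. In the lowest quintile (up to 0.427), calvarial-OB was lower in 73.1% and higher in 26.7%, with a median difference of -0.0933. In the next quintile, up to 0.477, the median difference was -0.147, and in the middle quintile, up to 0.66, it was -0.248. In the upper 2 quintiles it was -0.403 and -0.417, and every one of their 3068 windows was lower in calvarial-OB. No window with a fibroblast score above 0.627 was higher in calvarial-OB. The median calvarial-OB score itself hardly followed the fibroblast score, at 0.275, 0.310, 0.320, 0.270 and 0.270 from the lowest to the highest quintile. Over all 7726 windows the calvarial-OB and fibroblast scores had a Pearson r of -0.128 and a Spearman rho of -0.113, a description over windows that share libraries and partly share fragments.

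Most of this relation is built in, because the fibroblast score enters both the difference and the grouping. From the lowest to the highest quintile the median fibroblast score rose from 0.397 to 0.693. The calvarial-OB median was 0.275 in the lowest and 0.270 in the highest. The highest autosomal score was 0.770 in calvarial-OB and 0.807 in fibroblasts. Above a fibroblast score of 0.66 the difference closest to 0 was -0.232. The part of an upper limit of the score was not tested. Grouped by the mean of both scores instead, the median differences from the lowest to the highest quintile were -0.398, -0.673, -0.127, -0.375 and -0.330, with no steady order. At the low end the direction was mixed. Of the 23 windows at 0 in fibroblasts 19 were higher in calvarial-OB, with a median calvarial-OB score of 0.270. Of 542 windows with fibroblast scores above 0 and up to 0.35, 313 were higher in calvarial-OB (57.7%) and 229 lower. Above a fibroblast score of 0.55, 3719 of 3771 windows were lower in calvarial-OB (98.6%).

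Windows at 0 in calvarial-OB were found at every fibroblast level. From the lowest to the highest fibroblast quintile they made up 24.7%, 20.4%, 12.9%, 39.0% and 31.7% of the windows.

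**Figure D2:**
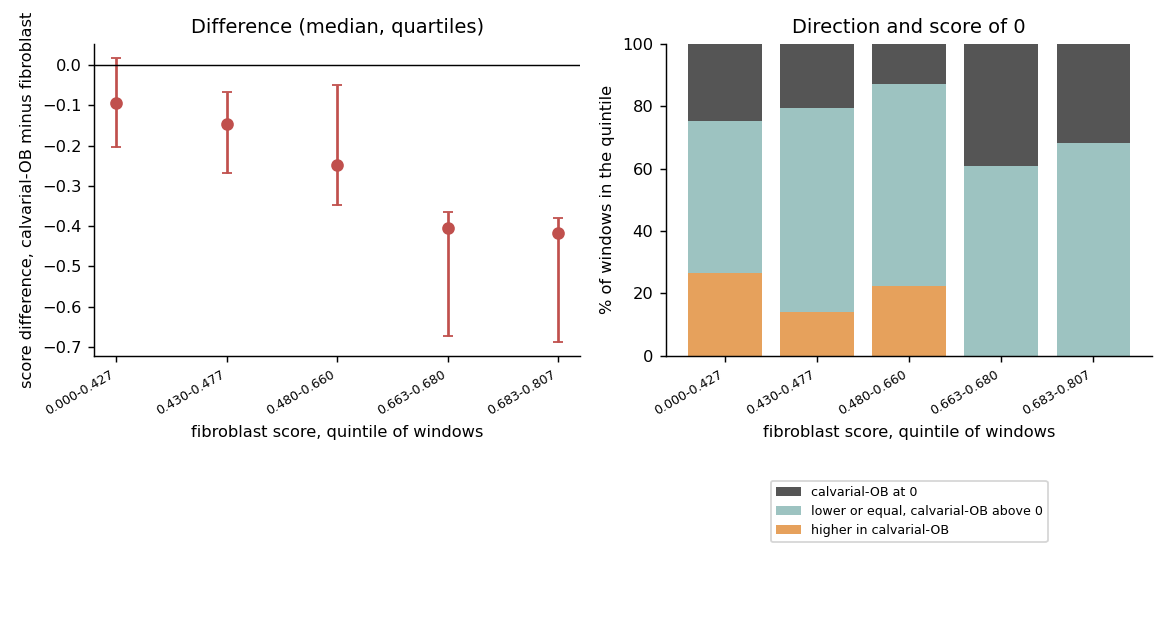
Left, score difference of calvarial-OB minus fibroblast (points are medians, bars run from the lower to the upper quartile over windows) in quintiles of the fibroblast score. Right, the share of each quintile's windows (%) at 0 in calvarial-OB, lower or equal but above 0, and higher. The median difference goes down from -0.0933 to -0.417 along the quintiles, and the upper 2 quintiles hold no higher window.

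All 19 autosomes showed the same direction. The share of windows lower in calvarial-OB ran from 81.6% on chromosome 5 to 90.1% on chromosome 11, with a median chromosome at 87.4%. The median difference ran from -0.353 on chromosomes 4 and 11 to -0.267 on chromosome 14. Chromosome 1 held the most windows, 628, with median scores of 0.275 in calvarial-OB and 0.563 in fibroblasts, and chromosome 19 the fewest, 113, with 0.275 in calvarial-OB and 0.507 in fibroblasts. Per megabase between the first and last window, counts ran from 1.90 on chromosome 11 to 3.99 on chromosome 18.

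The chromosomes differed more in the share of windows at 0 in calvarial-OB, from 16.1% on chromosome 15 to 31.9% on chromosome 4. The median calvarial-OB score lay between 0.270 and 0.305 on every chromosome and the median fibroblast score between 0.507 and 0.570. Chromosomes 5 and 14, with the lowest shares of lower windows (81.6% and 82.4%), had the largest shares of windows in runs of 5 or more adjoining windows, 18.0% and 19.6%. With each run of adjoining windows counted once, chromosome 5 stood at 90.4%, while chromosome 14 was the lowest at 88.2% and chromosome 9 the highest at 94.0%. No test was made between chromosomes, since windows of 1 chromosome are not replicates.

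**Figure D3:**
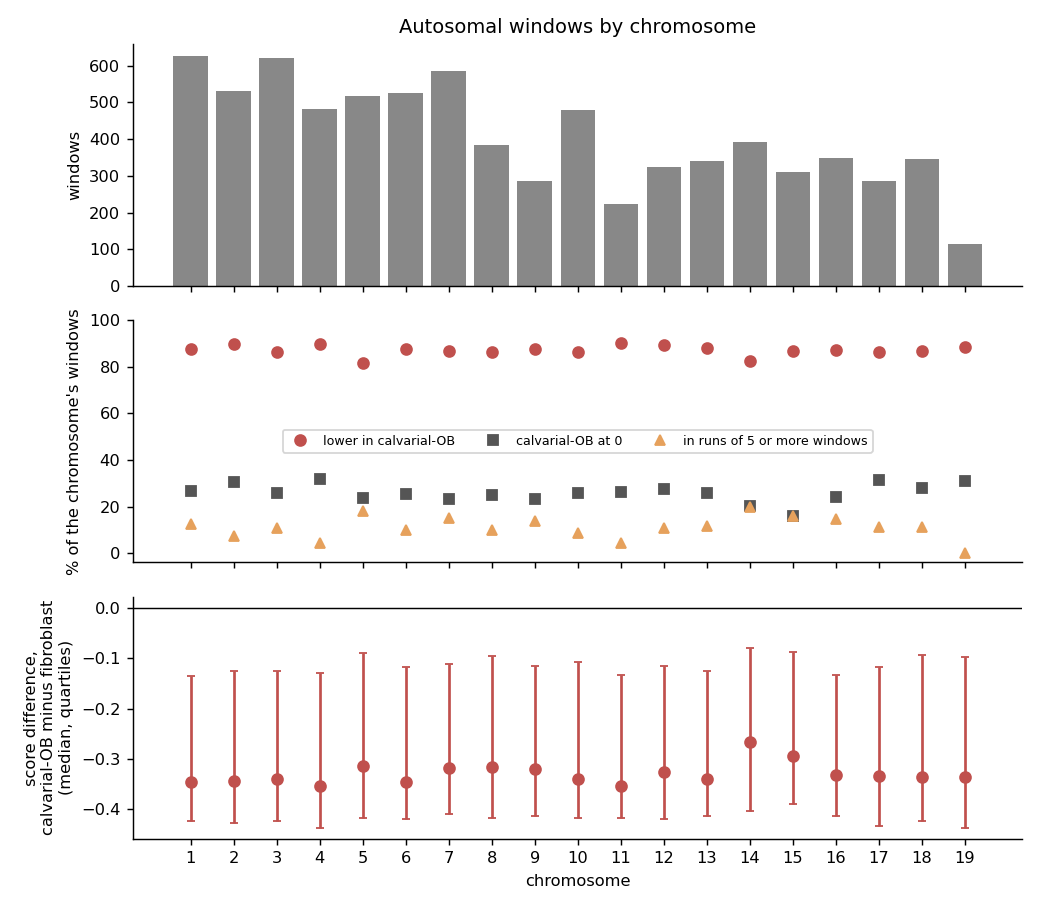
Top, number of windows per autosome. Middle, percent of each chromosome's windows lower in calvarial-OB (circles), at 0 in calvarial-OB (squares) and in runs of 5 or more adjoining windows (triangles). Bottom, score difference of calvarial-OB minus fibroblast (median with quartiles over windows). The circles lie between 81.6% and 90.1%, and all medians are below 0.

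Within chromosomes the lower windows were spread out. In bins of 10 Mb, 185 bins held 20 or more windows, and in each of these over 50% of windows were lower in calvarial-OB and the median difference was below 0. The share lower per bin had a median of 88.0% and quartiles of 82.4% and 92.9%. The bin with the lowest share was chr14:30000001-40000000, where 17 of 31 windows were lower (54.8%), with median scores of 0.375 in calvarial-OB and 0.513 in fibroblasts. In that bin 51.6% of windows belonged to runs of 5 or more, against 888 of all 7726 autosomal windows. The bins next lowest in share, chr5:20000001-30000000, chr8:50000001-60000000 and chr17:70000001-80000000, had 27.5%, 15.2% and 0% of windows in such runs. In 6 bins every window was lower, among them chr14:1-10000000, with 20 windows and median scores of 0.270 in calvarial-OB and 0.678 in fibroblasts.

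The windows came partly alone and partly in short runs. Of the 7726, 3267 (42.3%) had no adjoining window in the table, and 4459 (57.7%) formed 1618 runs of 2 or more. Only 154 runs reached 5 windows, 4 reached 10, and the longest spanned 1300 bp. The median gap between consecutive windows was 29300 bp and the upper quartile 355900 bp. A gap of exactly 1 missing window occurred in 371 of 7707 consecutive pairs. Beyond such short distances few windows joined, since allowing gaps of up to 10000 bp raised the share with a neighbour to 71.7%.

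Run length went with the size and direction of the difference. Single windows had medians of 0.270 in calvarial-OB and 0.657 in fibroblasts, a median difference of -0.370, and 92.6% of them were lower in calvarial-OB. Windows in runs of 3 had medians of 0.305 in calvarial-OB and 0.507 in fibroblasts, and 83.7% were lower. In runs of 5 to 6 the medians were 0.365 in calvarial-OB and 0.497 in fibroblasts, and 70.4% were lower. In the 23 runs of 7 to 13 windows they were 0.4 in calvarial-OB and 0.5 in fibroblasts. The median difference of their windows was -0.0550, and 55.4% were lower. A calvarial-OB score of 0 was found in 33.5% of single windows, in 2.45% of windows in runs of 5 to 6 and in 5.13% of those in runs of 7 to 13.

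The same order appeared within quintiles of the fibroblast score. In the lowest quintile 76.4% of single windows were lower in calvarial-OB, against 50.9% of windows in runs of 5 or more, and in the middle quintile 90.6% against 63.1%. In the highest quintile all windows of every run length were lower, and the median difference was -0.417 in single windows and -0.357 in runs of 5 or more. Higher windows were found in runs more than lower ones were: 76.2% of the 995 higher windows and 55% of the 6723 lower windows lay in a run of 2 or more.

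Adjoining windows had similar differences. In 2841 adjoining pairs the 2 differences lay a median of 0.0550 apart, with a Pearson r of 0.702. Pairs over 100 and up to 1000 bp apart differed by 0.178 (175 pairs, r of 0.439), and pairs over 1000 and up to 10000 bp apart by 0.227 (276 pairs, r of 0.0847). From 10000 bp upward the value stayed between 0.252 and 0.259. Fragments span neighbouring windows, and the part of shared fragments in this likeness was not tested. The same direction was seen in 84.0% of adjoining pairs and in 82.2% of consecutive pairs over 100000 and up to 1000000 bp apart, against 77.5% of all pairs of windows on the same chromosome. Pairs with exactly 1 missing window between them shared direction in 94.6%. These shares are not on the same footing, since single windows enter only pairs with a gap. Of single windows 92.6% were lower, against 70.4% of windows in runs of 5 to 6, so the agreement from this mix alone differs between pair types. Agreement in direction beyond that mix was not tested. Of the 1618 runs of 2 or more windows, 1243 (76.8%) were lower throughout, 78 (4.82%) higher throughout, and 295 (18.2%) held windows of both directions.

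**Figure D4:**
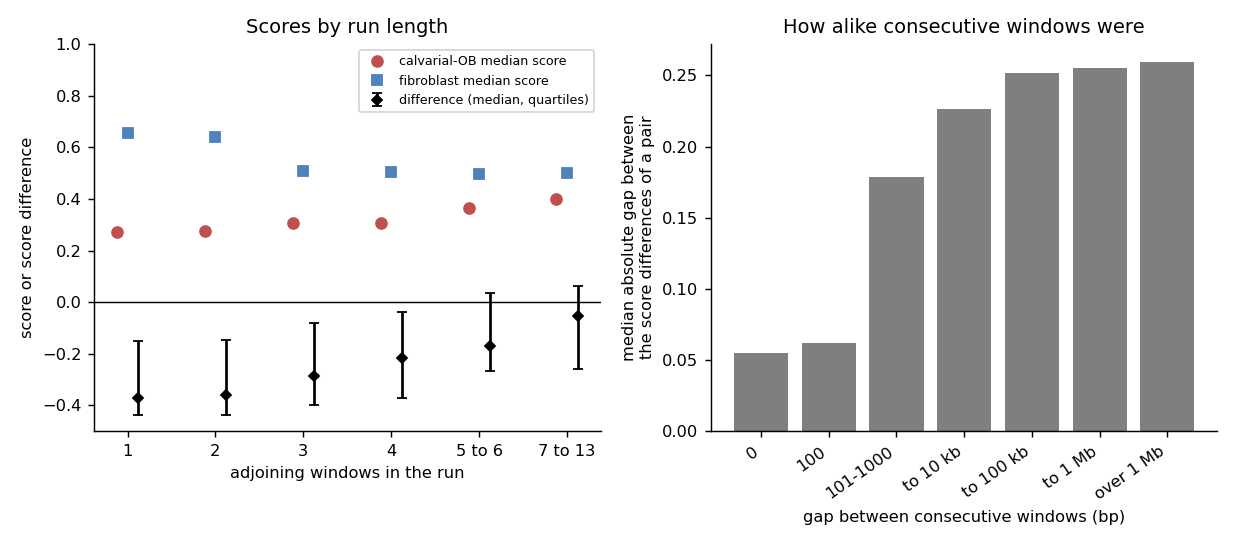
Left, median scores in calvarial-OB (circles) and fibroblasts (squares) and their difference (diamonds, median with quartiles) by number of adjoining windows in a run. Right, median absolute gap between the differences of 2 consecutive windows by the distance between them. The difference shrinks from -0.370 in single windows to -0.0550 in runs of 7 to 13, and pairs are most alike below 1000 bp.

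In runs of 5 or more windows, the direction differed by position. Of the 308 first and last windows of these 154 runs, 75% were lower in calvarial-OB. Their median scores were 0.365 in calvarial-OB and 0.487 in fibroblasts. Of the 272 windows at least 2 places from either end, 57.0% were lower, with median scores of 0.398 in calvarial-OB and 0.507 in fibroblasts. Longer runs hold more inner windows, so the shares are also given by run length. In runs of 5 to 6, 62.7% of inner windows and 76.3% of end windows were lower, and in runs of 7 to 13, 47.6% of 103 inner windows and 67.4% of 46 end windows.

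Long runs showed distinct profiles. The run on chromosome 6, chr6:52153601-52154500, was low in calvarial-OB over its whole 900 bp. Its 9 windows scored 0.065 to 0.230 in calvarial-OB, against 0.447 to 0.670 in fibroblasts, with means of 0.139 in calvarial-OB and 0.540 in fibroblasts. Each of the 9 window means was lower in calvarial-OB, and none was at 0 there. The run chr10:27540001-27541000 had an abrupt edge. Its first 3 windows scored 0.545, 0.455 and 0.210 in calvarial-OB, against 0.483, 0.437 and 0.533 in fibroblasts. The other 7 were all at 0 in calvarial-OB, against 0.427 to 0.560 in fibroblasts.

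That run lay in the region with the most windows when gaps of up to 10000 bp were joined, chr10:27535101-27544600, where 18 of 21 windows were lower in calvarial-OB and 3 higher. The region's mean score was 0.213 in calvarial-OB and 0.495 in fibroblasts, and 9 of its windows were at 0 in calvarial-OB. The run chr1:33076101-33077000 was mixed, with 6 of 9 windows lower, means of 0.404 in calvarial-OB and 0.55 in fibroblasts, and scores that alternated between the directions over its first 6 windows.

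The 3 longest runs with a higher mean in calvarial-OB were the longest of all. The run chr3:9450901-9452200 had 10 of 13 windows higher, with means of 0.523 in calvarial-OB and 0.444 in fibroblasts. Its windows 8 to 11 carried most of the difference, at 0.620, 0.585, 0.6 and 0.560 in calvarial-OB, against 0.35, 0.337, 0.360 and 0.357 in fibroblasts. The run chr13:85984001-85985300 also had 10 of 13 windows higher, with means of 0.540 in calvarial-OB and 0.465 in fibroblasts. Its first 2 windows were lower, at 0.275 and 0.340 in calvarial-OB, against 0.460 and 0.533 in fibroblasts. The run chr15:55227601-55228700 had 7 of 11 windows higher, with means of 0.533 in calvarial-OB and 0.510 in fibroblasts and a range of differences from -0.293 to 0.240. All windows of these 6 runs were at 0 in iOB, as were 98.4% of all autosomal windows.

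**Figure D5:**
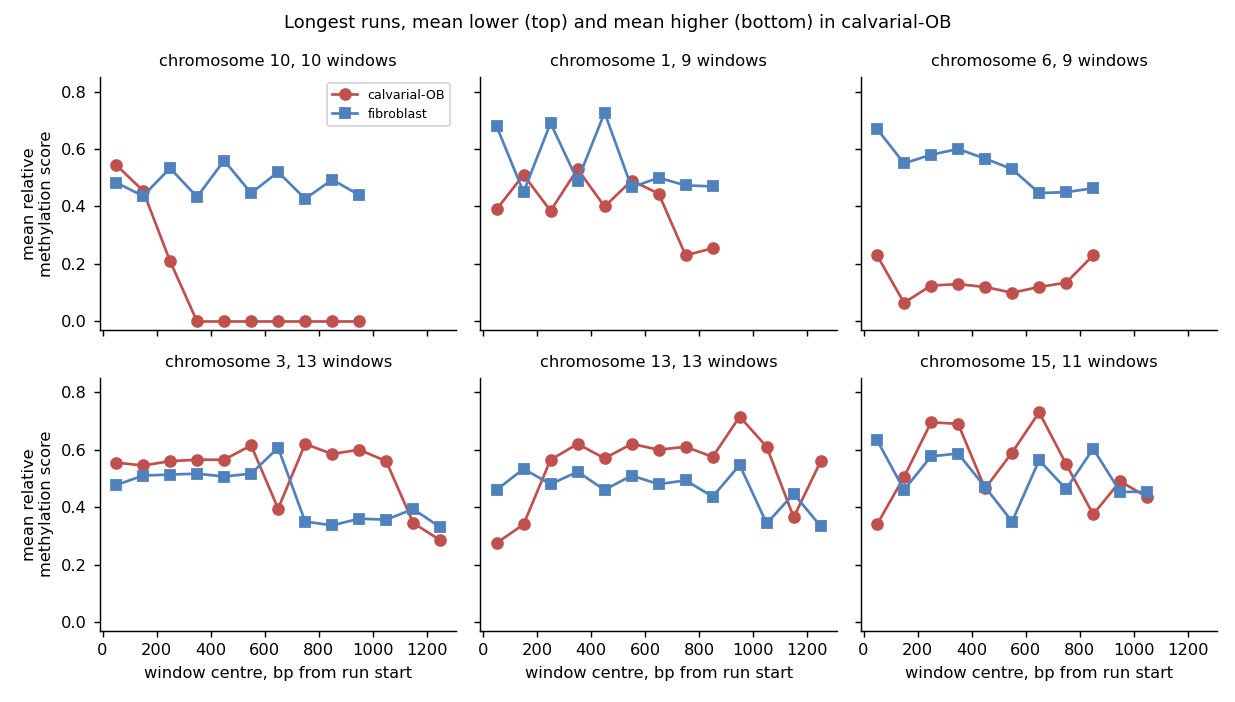
Mean relative methylation score by distance from the start of the run (bp, window centres) for the 3 longest runs with a lower mean in calvarial-OB (top) and the 3 with a higher mean (bottom), with circles for calvarial-OB and squares for fibroblasts. Runs of 9 windows with a lower mean numbered 3, tied in length, and those on chromosomes 1 and 6 are shown. On chromosome 6 calvarial-OB stays at 0.065 to 0.230, and on chromosome 10 it drops to 0 within 4 windows.

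The widest regions joined at up to 10000 bp held few windows. The widest, chr16:39770701-39789000, spanned 18300 bp with 6 windows, all lower in calvarial-OB, at 0.270 to 0.330 in calvarial-OB and 0.463 to 0.687 in fibroblasts. The next, chr16:64397701-64413100, had 4 windows, all lower, at 0.305 to 0.35 in calvarial-OB and 0.440 to 0.683 in fibroblasts. After it, chr1:85051001-85062900 had 3 of its 4 windows lower.

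The windows of chromosome X had other levels than the autosomes. The 1852 windows of chromosome X had median scores of 0.0950 in calvarial-OB, 0.0467 in fibroblasts and 0.325 in iOB. Calvarial-OB was lower there in 36.4% of windows and higher in 42.6%. In the 699 windows of X at 0 in iOB, the state of nearly all autosomal windows, calvarial-OB was lower in 68.8%. The 165 windows of Y or of unplaced sequence were close to the autosomes, with medians of 0.295 in calvarial-OB, 0.510 in fibroblasts and 0 in iOB and 91.5% lower in calvarial-OB. The difference between autosomes and X was not tested, and the sex of the animals is not given in the sources used here. Among the autosomes, the 127 windows with an iOB score above 0 had medians of 0.295 in calvarial-OB, 0.273 in fibroblasts and 0.305 in iOB, and 62.2% of them were higher in calvarial-OB.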

How the data were processed

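Sonicated genomic DNA (100 to 350 bp) was enriched from 100 ng with methyl-CpG-binding proteins, per the labels' protocols, and sequenced with input libraries. The submitters' processing notes name Bowtie2, STAR 2.4.2a, DESeq2, R 3.2.2 and the mm9 build, without roles. For 9743 windows of 100 bp the authors deposited 1 relative methylation score a group, a mean; the formula, the selection of windows, the use of inputs and the depth are not given in the sources used here. The column headed OB was taken as calvarial-OB. Raw counts per gene symbol, as deposited by the authors, were used only as CPM of 6 RNA libraries (7634593 to 15023771 counts) to check cell type markers, with no test.

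Python 3.11.15 with pandas 2.3.3, numpy 2.4.6, scipy 1.17.1 and matplotlib 3.10.9 was used. No window was filtered. Differences are calvarial-OB minus fibroblast, equal within 1e-06. Windows that touch form a run. Functions were tested on simulated windows. Named windows are the 5 most negative and 5 most positive differences, 1 at the median, the 3 longest runs in each direction, and the widest or fullest joined regions. Among the 3 runs of 9 windows with a lower mean, which tied in length, 1 was left out. The genes and RNA at windows, planned for an mm9 annotation, were not analysed here. Members, lists and rules were chosen with earlier results of these data known.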

Additional observations from a re-analysis of the deposited data

How the results depend on the processing

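No paired analysis was possible because the table holds 1 mean per group, which also leaves no library to leave out. The share of windows lower in calvarial-OB (87.0%) was 92.6% and 97.5% among windows that differ by at least 0.1 and 0.2, 91.6% with adjoining windows merged and 91.6% with windows up to 10000 bp apart merged. It was 77.5% over all chromosomes and 82.8% without scores of 0. With calvarial-OB rescaled to the fibroblast median, which leaves scores of 0 at 0, it was 60.2%. In windows at 0 in iOB, a choice made after seeing the data, it was 87.8%. The median difference (-0.337) was -0.353 with runs merged, -0.258 over all chromosomes, -0.222 without scores of 0 and -0.0904 after the rescaling, here also chosen after seeing the data. Leaving out each of the 19 chromosomes in turn gave -0.337 to -0.333. The share of windows with a neighbour (57.7%) was 64.7%, 67.7% and 71.7% with gaps of up to 100, 1000 and 10000 bp. The share of neighbours with the same direction (84.0%) stayed within its 95% interval for those gaps. Each wider set holds the 2841 adjoining pairs, so this was largely fixed in advance. Pairs with exactly 1 missing window, taken alone, stood at 94.6%. The median difference in the lowest fibroblast quintile (-0.0933) was -0.100 with 4 bins, -0.0233 with 10, -0.398 with bins by the mean of both groups, and 0.0933, the opposite sign, for fibroblast scores below 0.2, a bin with fewer and lower windows. In the highest quintile (-0.417) it was -0.422 with 10 bins, -0.403 for scores of at least 0.6 and -0.330 with bins by the mean. As log2 ratios with a pseudocount of 0.05, the 2 quintiles stood at -0.35 and -1.20. With runs merged, chromosome 5 had 90.4% of regions lower in place of 81.6% of windows. These intervals treat windows as independent and cover counting only. The unknown depth sets no floor for a score of 0.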
